A study of Mus musculus with 6 samples.

Results

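The NMDA receptor subunit genes Grin1, Grin2a, Grin2b, Grin2c, Grin2d and Grin3a were described in hippocampal RNA of mice exposed to hyperoxia as newborns. They were taken from the deposited table by gene name, and all 6 were found among its 24935 genes. C57BL/6 pups were kept with their dams in 85% oxygen or in room air from P2 to P14, and mRNA of the left hippocampus was sequenced at P14, with 1 library from each of 3 air-exposed and 3 hyperoxia-exposed mice. The groups shared strain, age and tissue and differed in the oxygen breathed, and whole hippocampal tissue was used without sorting of cells. The study used pups of both sexes, and the labels used here give no sex, litter or chamber for a library. Whether mice of a group were littermates is therefore not known, and an effect of litter cannot be told apart from that of oxygen. Each column of the table names its group and carries a number, 1 to 3, that identifies no animal and pairs no mice. No deleted gene or transgene checks the group of a column in this design, so every direction below rests on the group that the column names, and all directions would turn if those names were exchanged. The study's own report gives Grin1 mRNA as higher and Grin2b mRNA as lower in hyperoxia, opposite in sign to the differences found here. The sources used here do not settle whether the column names or those signs match the exposures.

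NMDA receptors are glutamate-gated channels, assembled from several subunits, that pass calcium and open only when glutamate and a co-agonist, glycine or D-serine, are bound and magnesium block is relieved. GluN1, encoded by Grin1, is the obligatory subunit and binds the co-agonist. The GluN2 subunits, encoded by Grin2a to Grin2d, bind glutamate and set the speed, magnesium block and signalling of the channel, and GluN3A, encoded by Grin3a, binds glycine and lowers calcium entry. In the rodent hippocampus GluN2B and GluN3A are abundant early in life, whereas GluN2A rises as synapses mature, and the change from GluN2B to GluN2A is a widely used sign of synapse maturation.

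All 6 genes encode the same channel gate, a conserved motif at the end of the third membrane segment. Stretches of Grin1, Grin2c and Grin3a, 1 gene for each kind of subunit, show how much of the sequence the kinds share at this conserved part, which bears on how far reads can be told apart between them. Each is 63 bases of coding sequence from GENCODE transcripts of GRCm38, given 5′ to 3′, and the capitals mark the 21 bases that encode the gate motif.
Grin1: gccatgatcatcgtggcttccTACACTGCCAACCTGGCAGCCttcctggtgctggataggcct
Grin2c: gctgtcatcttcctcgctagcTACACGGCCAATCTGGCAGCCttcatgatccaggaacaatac
Grin3a: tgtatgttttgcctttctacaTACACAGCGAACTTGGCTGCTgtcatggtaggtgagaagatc
Over all 6 genes, pairs of subunits had between 15 and 19 of the 21 capital bases in common, and between 35 and 56 of the 63. Over whole transcripts, the longest run shared exactly by any pair was 34 bases, between Grin2b and Grin2c. That is shorter than 1 read of 75 bases.

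The members lie on 6 chromosomes, and all are on the minus strand in the GRCm38 annotation. Grin1 (ENSMUSG00000026959.13) spans bases 25291181 to 25319187 of chromosome 2, Grin2a (ENSMUSG00000059003.12) 9567898 to 9995560 of chromosome 16, and Grin2b (ENSMUSG00000030209.14) 135713233 to 136173511 of chromosome 6. Grin2c (ENSMUSG00000020734.13) spans 115249169 to 115267243 of chromosome 11, Grin2d (ENSMUSG00000002771.12) 45831883 to 45878378 of chromosome 7, and Grin3a (ENSMUSG00000039579.15) 49661611 to 49845744 of chromosome 4. The longest annotated transcripts of Grin2a and Grin2b reach 14.63 and 24.06 kb, against 4.28 kb for Grin1.

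Libraries held between 30384052 and 38746972 reads on genes, and the members had between 1004 and 26089 reads in each library. Hyperoxia library 2 stood apart on the second principal component, at 38.73, where the other 5 libraries lay between -22.56 and 5.45. The libraries also differed with transcript length. Genes with the longest transcripts (6.57 kb or more) had a median log2 deviation from their own mean of -0.134, -0.146 and -0.059 in the air group, and of 0.15, -0.078 and 0.255 in the hyperoxia group, in the order of the library numbers. Where leaving out hyperoxia library 2, or removing the trends with length and GC content, changed a call, a sign or the size of a difference by much, that value is given beside the result.

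By the column names, hyperoxia-exposed mice had less Grin1 and more Grin3a mRNA among the subunits, and the other 4 genes did not pass the test. Values are normalized counts, the reads of a gene after the authors' scaling of each library. Differences are on the log2(value + 1) scale, tested by limma over 17778 genes, and a gene was called at a Benjamini-Hochberg adjusted p below 0.05. All 6 members entered the test, and 1 was called lower and 1 higher, 2 of 6 in all. Over all tested genes 30.5% were called, 14.9% higher and 15.6% lower, so the share of members called was close to the background. With 1 library per mouse, the p-values set each difference against the spread between mice of a group, which limma moderates over genes.

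**Figure D1:**
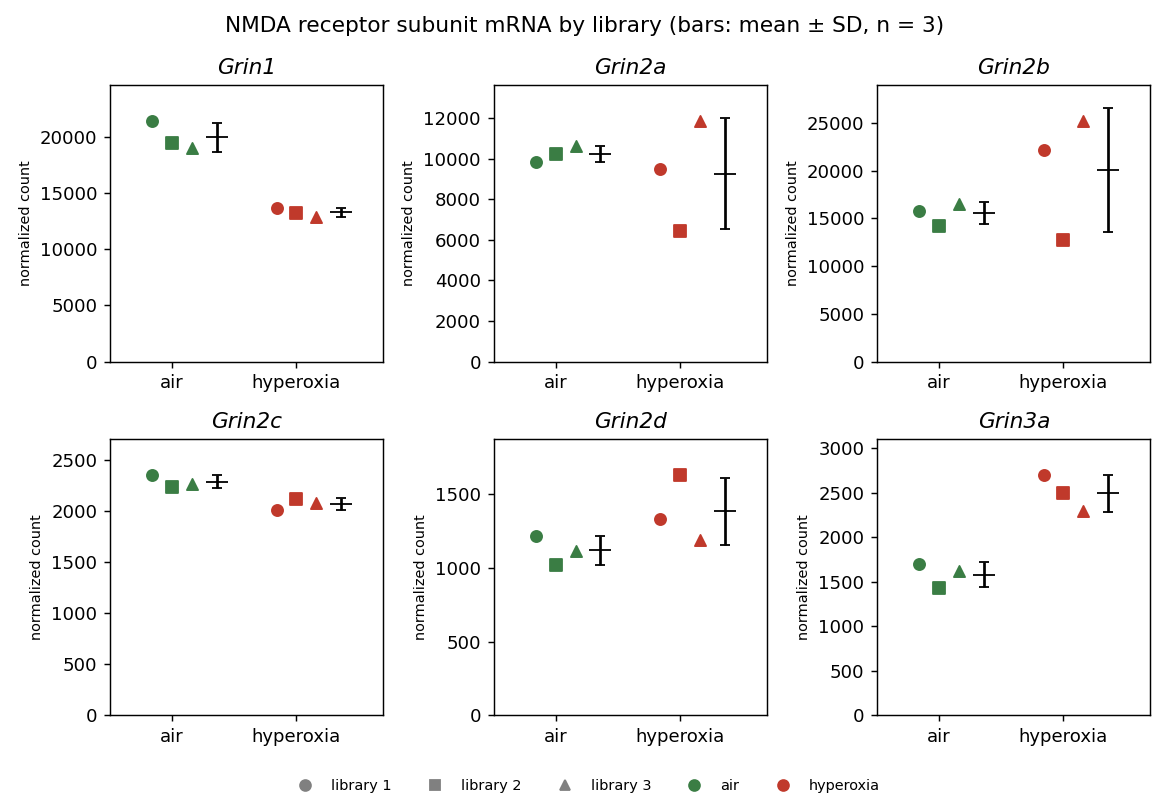
Normalized count of each of the 6 NMDA receptor subunit genes in each library (points), by group on the x axis, with the mean ± SD of 3 mice per group (bars), each y axis starting at 0. The hyperoxia libraries lie below the air libraries for Grin1 and Grin2c and above them for Grin3a, while Grin2a and Grin2b spread widely in hyperoxia with library 2 low.

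Grin1, the gene of the subunit that every NMDA receptor needs, had normalized counts of 21379.6, 19397 and 18999 in the air group and of 13689.9, 13217 and 12895 in the hyperoxia group. All 3 hyperoxia libraries lay below all 3 air libraries, and the spread within either group was small beside the distance between them. The air mean was 19925 ± 1275 and the hyperoxia mean 13267 ± 399.8 (SD, n = 3 each), the latter 66.6% of the air level. Grin1 fell by 0.59 on the log2 scale (SE 0.07, 95% interval -0.75 to -0.42, limma adjusted p = 9.8e-04). In bulk tissue, fewer cells of a type and less RNA per cell cannot be told apart. Of 7 markers of dentate granule cells, a main neuron type of the hippocampus, 5 were called lower and none higher. Of all tested genes, 15.6% were called lower and 14.9% higher. The summed normalized count of the 7 markers was 21660, 21514 and 22324 in air and 14795, 14682 and 19623 in hyperoxia, by library number. The order of libraries was not that of Grin1 in either group. Only 2 of the 7 were called without air library 2 or hyperoxia library 1, and 3 without air library 1 or 3. No gene of that list was at 0, and its part in the Grin1 difference was not tested. Of 7 pan-neuronal genes, 2 were called higher and 3 lower. Their sum, 181796 to 183914 in air and 179229 to 186752 in hyperoxia, joins genes that went both ways and is no measure of the number of neurons.

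The antisense gene Grin1os overlaps Grin1 on the other strand and shares 1307 exon bases with it. It had 490.7, 507.8 and 536.9 normalized counts in air and 308.5, 260.4 and 343.6 in hyperoxia. Grin1os moved the same way as Grin1, with all hyperoxia libraries below and a log2 difference of -0.76 (SE 0.12, limma adjusted p = 0.00187). The libraries were strand-specific, but the sources used here do not give whether strand was used in the counting, so reads in the shared bases may belong to either gene. The level of Grin1os was small beside that of Grin1 in every library.

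Grin3a, the gene of the glycine-binding subunit that is high in juvenile neurons, went the other way. Normalized counts were 1695, 1431 and 1617 in air and 2703, 2493 and 2289 in hyperoxia. Every hyperoxia library exceeded every air library. The air mean was 1581 ± 136 and the hyperoxia mean 2495 ± 207 (SD, n = 3 each), a 1.58-fold difference of 0.66 on the log2 scale (SE 0.09, 95% interval 0.45 to 0.86, limma adjusted p = 0.00129). After removal of the trends with transcript length and GC content in each library, the log2 difference was 0.45 (limma adjusted p = 0.0189). Markers of neocortex and subiculum, regions that border the hippocampus, were called higher in hyperoxia for 5 of 7 genes, where 14.9% of all tested genes were. None of these markers was called lower. Their summed normalized count was 8708, 7569 and 8916 in air and 15071.5, 12689 and 12313 in hyperoxia, by library number. The order of libraries was that of Grin3a in hyperoxia, but not in air. No gene of that list was at 0 in any library, and its part in the Grin3a difference was not tested.

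Grin2c, whose subunit gives channels with weak magnesium block, was the steadiest member, with a coefficient of variation of 2.74% in air and 2.84% in hyperoxia. Its 1876 to 2504 reads per library have a counting error of 1.998% to 2.31%, close to that spread. Its normalized counts were 2358, 2238 and 2268 in air and 2007, 2124 and 2079 in hyperoxia. All 3 hyperoxia libraries lay below the air libraries, by a small distance. The means were 2288 ± 62.7 and 2070.1 ± 58.7 (SD, n = 3 each), a log2 difference of -0.14 (SE 0.07, 95% interval -0.29 to 0.01) that did not pass the test (limma adjusted p = 0.129). The groups of 3 members, Grin1, Grin2c and Grin3a, did not overlap, 3 of 6 where the groups of 46.1% of all tested genes did not, with hyperoxia above for 22.3% and below for 23.8%.

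Grin2b, the gene of the GluN2 subunit of young synapses, had normalized counts of 15813, 14252 and 16553 in air and of 22140.5, 12734.5 and 25181 in hyperoxia. Hyperoxia libraries 1 and 3 were above all air libraries and hyperoxia library 2 was below all of them. The means were 15539 ± 1174 in air and 20019 ± 6489 in hyperoxia (SD, n = 3 each), and the log2 difference of 0.31 (SE 0.21, 95% interval -0.16 to 0.78) was within the spread between mice (limma adjusted p = 0.289). Without hyperoxia library 2 it was 0.61 (limma adjusted p = 2.44e-04), in a fit that called 43.7% of all genes. With the length and GC trends removed and all 6 libraries kept, it was 0.05 (limma adjusted p = 0.767).

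Grin2a, the gene of the GluN2 subunit of mature synapses, had normalized counts of 9826, 10221 and 10626 in air and of 9507, 6444 and 11849 in hyperoxia. Hyperoxia library 2 was the lowest of all and hyperoxia library 3 the highest, so the groups overlapped. The means were 10224 ± 399.8 and 9267 ± 2710 (SD, n = 3 each), with a log2 difference of -0.19 (SE 0.18, 95% interval -0.59 to 0.22, limma adjusted p = 0.456). The sign turned without hyperoxia library 2, to 0.05 (limma adjusted p = 0.64). With the length and GC trends removed the difference was -0.50 and passed the test (limma adjusted p = 0.00521), where 32.3% of all genes did. Other scalings of the libraries left Grin2a uncalled, at -0.18 with TMM and -0.14 with quantile normalization.

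Grin2d, known in the hippocampus mainly from GABAergic interneurons, had normalized counts of 1220, 1022 and 1116 in air and of 1329, 1633 and 1188 in hyperoxia. Library 3 of the hyperoxia group lay inside the air range and the other two lay above it. The means were 1119 ± 99 and 1383 ± 227 (SD, n = 3 each), and the log2 difference of 0.30 (SE 0.12, 95% interval 0.03 to 0.56) did not pass after adjustment (limma adjusted p = 0.0879). Without hyperoxia library 3 it was 0.40 (limma adjusted p = 0.0232), in a fit that called 28.2% of all genes. Without hyperoxia library 2, which had the highest Grin2d value, the difference was 0.17 (limma adjusted p = 0.142). With the length and GC trends removed it was 0.22 (limma adjusted p = 0.228). The summed normalized count of 9 interneuron markers was 29676, 27762 and 25767 in air and 26491, 31353 and 23427 in hyperoxia, by library number. The order of libraries was that of Grin2d in hyperoxia, but not in air. Of those 9 markers 1 was called higher and 1 lower, where 14.9% of all tested genes were called higher and 15.6% lower. Without hyperoxia library 2, 6 of the markers were called, in a fit that called 43.7% of all genes. None of the markers was at 0, and their part in the spread of Grin2d was not tested.

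Grin3b, the remaining gene of the family and no member of the set described, was near the limit of detection. It had between 13 and 22 reads per library, and its log2 difference was -0.03 (SE 0.33, limma adjusted p = 0.957). A difference in Grin3b was not detectable at this depth. It shares 1059 exon bases with Tmem259 on the other strand, so some of its few reads may belong to that gene.

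**Figure D2:**
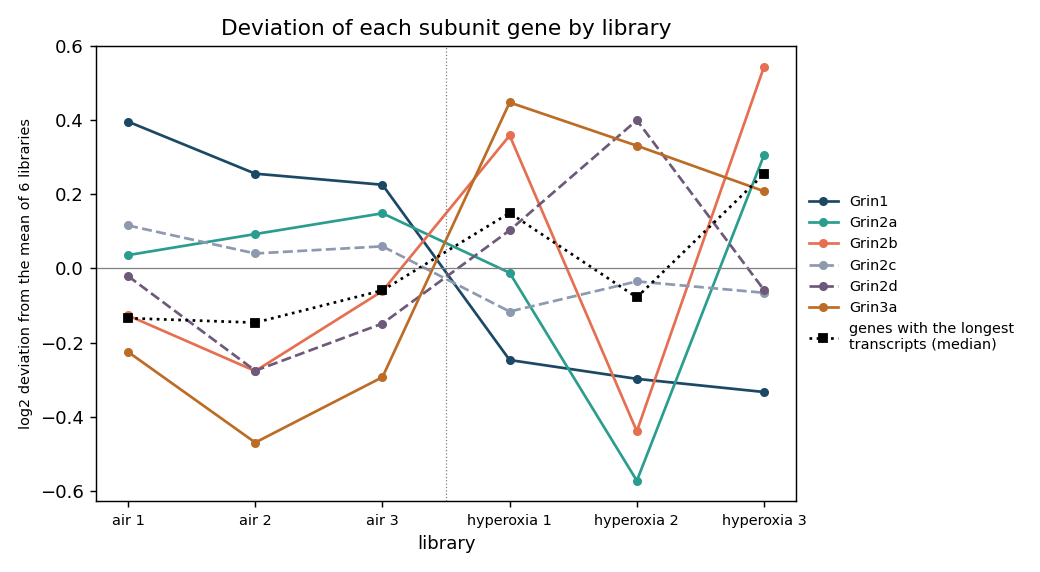
Log2 deviation of each subunit gene from its own mean over the 6 libraries (y axis) in each library (x axis), with the median of 1776 genes with the longest transcripts as black squares; lines join the points of 1 gene for reading only, since libraries have no order. Grin2a and Grin2b drop together in hyperoxia library 2, to -0.57 and -0.44, where Grin2d is at its highest, 0.40, and Grin1 and Grin3a stay with their group.

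The plot of deviations shows that Grin2a and Grin2b moved together from library to library in the hyperoxia group. From hyperoxia library 2 to hyperoxia library 3, Grin2a went from -0.57 to 0.31 and Grin2b from -0.44 to 0.54 on the log2 scale of deviations. The median of the genes with the longest transcripts was low and high in the same libraries. Both subunits have transcripts far above 6.57 kb, and the part of length in their spread was not tested beyond the fit with length and GC trends removed.

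A ratio of subunits within a library does not depend on the scaling of that library. The ratio of Grin2a to Grin2b, both long genes, was 0.621, 0.717 and 0.642 in air and 0.429, 0.506 and 0.471 in hyperoxia, as a ratio of normalized counts. All values in hyperoxia were under all values in air, and hyperoxia library 2, which stood apart for either gene alone, had the highest of the hyperoxia ratios and was still below air. The mean ratio was 0.66 ± 0.0504 in air and 0.469 ± 0.0384 in hyperoxia (SD, n = 3 each), a log2 difference of -0.49. All 3 hyperoxia libraries were below the air libraries for the ratio to Grin2b of 12.7% of all tested genes.

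The tests of this ratio differed. The fit of the ratios of all genes to Grin2b gave an SE of 0.34 and a limma adjusted p of 0.459, so the ratio was not called. In that fit every ratio carries the spread of Grin2b itself, and only 2.78% of ratios were called, 2.19% lower. The log2 ratio of Grin2a to Grin2b had an SD of only 0.108 in air and 0.119 in hyperoxia. Entered as a row of the table of all genes, a choice made after the values were seen, the ratio had an SE of 0.0866 and a limma adjusted p of 0.00325, where 30.5% of the table was called. The exact permutation test on the 6 ratios gave a two-sided p of 0.1, the smallest that 3 against 3 allows. Without hyperoxia library 2 the log2 difference was -0.55 (limma adjusted p = 8.76e-05), in a fit that called 71% of all ratios to Grin2b. With the length and GC trends removed it was -0.55 (limma adjusted p = 0.0364), where 9.64% were called.

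**Figure D3:**
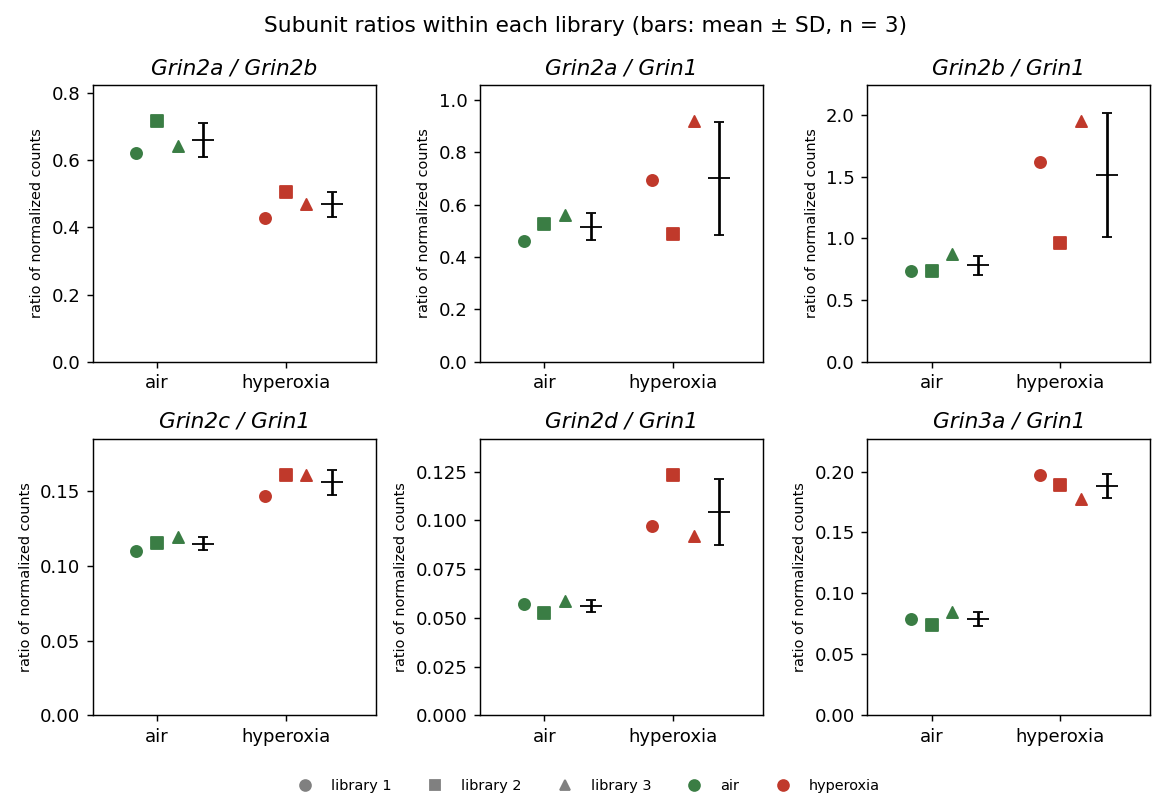
Ratio of normalized counts of Grin2a to Grin2b, and of each other subunit gene to Grin1, in each library (points), with the mean ± SD of 3 mice per group (bars) and y axes from 0. The hyperoxia libraries lie below the air libraries for Grin2a to Grin2b and above them for Grin2b, Grin2c, Grin2d and Grin3a to Grin1, and the groups overlap for Grin2a to Grin1.

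Against Grin1, the obligatory subunit, the other subunits gained weight in hyperoxia, as most genes did. The log2 ratio to Grin1 was called for 5 of 5 members, all higher, but 72.1% of all tested genes were called in their ratio to Grin1, 70.9% higher, Grin1 itself being lower. The size of the ratios differed more than their calls. Grin3a to Grin1 was 0.0793, 0.0738 and 0.0851 in air and 0.197, 0.189 and 0.178 in hyperoxia, a 2.37-fold difference (log2 1.24, SE 0.10, limma adjusted p = 6.44e-07). With the length and GC trends removed the log2 difference was 0.99 (limma adjusted p = 1.6e-04). Grin2d to Grin1 was 0.057, 0.0527 and 0.0587 in air and 0.097, 0.124 and 0.0921 in hyperoxia (log2 0.88, SE 0.12, limma adjusted p = 1.95e-05). In both, the hyperoxia libraries were above the air libraries, as they were for the ratio to Grin1 of 74.2% of all tested genes.

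Grin2b to Grin1 was 0.74, 0.735 and 0.871 in air and 1.62, 0.964 and 1.95 in hyperoxia (log2 0.89, SE 0.19, limma adjusted p = 5.68e-04). Hyperoxia library 2 was nearest to air but stayed above it, and with the length and GC trends removed the log2 difference was 0.59 (limma adjusted p = 5.46e-04). Without hyperoxia library 2 it was 1.19 (limma adjusted p = 2.18e-08). Grin2c to Grin1 was 0.11, 0.115 and 0.119 in air and 0.147, 0.161 and 0.161 in hyperoxia (log2 0.44, SE 0.10, limma adjusted p = 9.2e-04), again with no overlap. Grin2a to Grin1 was 0.46, 0.527 and 0.559 in air and 0.694, 0.488 and 0.919 in hyperoxia. There hyperoxia library 2 fell inside the air range, and the log2 difference of 0.40 (SE 0.17, limma adjusted p = 0.0434) lost its call in 9 of 15 alternatives.

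Against Grin2b, the groups overlapped for the other 3 subunits. Log2 differences were -0.45 for Grin2c (SE 0.34, limma adjusted p = 0.503), -0.01 for Grin2d (SE 0.34, limma adjusted p = 0.989) and 0.35 for Grin3a (SE 0.34, limma adjusted p = 0.613). Hyperoxia library 2 had the highest of all 6 values in each of these 3 ratios, at 0.167, 0.128 and 0.196. Without it, Grin2c to Grin2b was -0.77 (limma adjusted p = 9.02e-08) and Grin2d to Grin2b was -0.44 (limma adjusted p = 0.00398), in the same fit that called 71% of ratios, while Grin3a to Grin2b was 0.05 (limma adjusted p = 0.747). With the length and GC trends removed, Grin2c to Grin2b was -0.20 (limma adjusted p = 0.563) and Grin2d to Grin2b 0.17 (limma adjusted p = 0.693).

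Levels of different genes were compared only as normalized counts per kb of merged exon length. Grin1 was highest in both groups, at 2054 per kb in air and 1368 per kb in hyperoxia, and no other member came near it on this length. Grin2b followed at 626 and 806 per kb, then Grin2a at 570.1 and 517 per kb, and Grin2c at 454 and 411 per kb. Grin2b and Grin2a overlapped in air, with 574 to 666 per kb against 548 to 593 per kb. Grin2d had 168 and 208 per kb and Grin3a 129 and 203 per kb, and these genes overlapped in hyperoxia, with 178 to 245 per kb against 187 to 220.2 per kb. Grin3b was at 4.78 and 4.66 per kb. The order of neighbours depended on the length used. With the longest transcript as length, Grin2a (699 per kb) stood above Grin2b (646 per kb) in air, and with coding length Grin3a (464 per kb) stood above Grin2d (282 per kb) in air. With coding length Grin2b was above Grin1 in hyperoxia library 1 (4980 against 4758 per kb) and hyperoxia library 3 (5664 against 4482 per kb), and below it in hyperoxia library 2 (2864 against 4594 per kb).

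**Figure D4:**
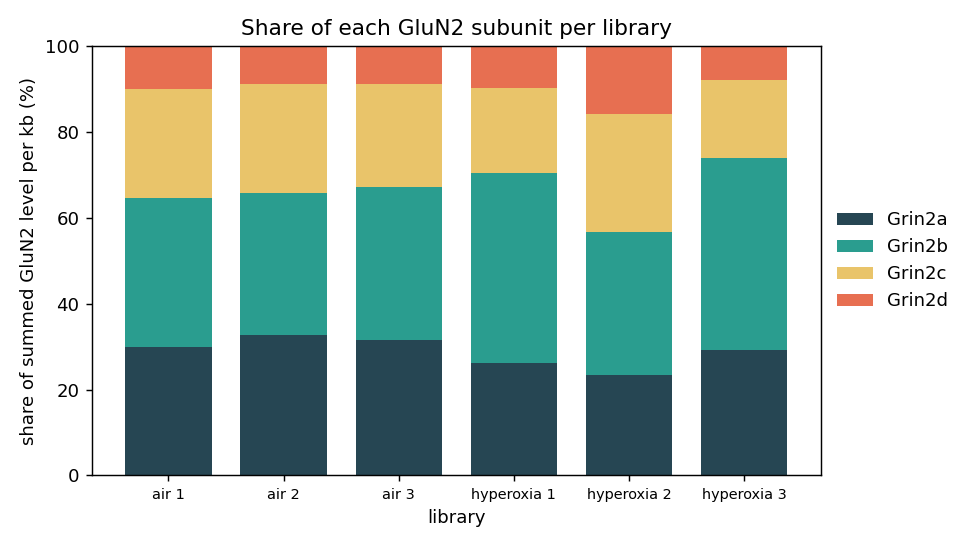
Share of Grin2a, Grin2b, Grin2c and Grin2d in their summed normalized count per kb of merged exon length (y axis, percent) in each library (x axis). Grin2a takes between 29.8% and 32.7% in air and between 23.4% and 29.2% in hyperoxia, and in hyperoxia library 2 Grin2c and Grin2d take larger shares than in any other library.

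Within the GluN2 genes alone, Grin2a made up 29.8%, 32.7% and 31.6% of the summed level per kb in the air group and 26.3%, 23.4% and 29.2% in the hyperoxia group, by library number. The groups did not overlap, with means of 31.4% ± 1.45 and 26.3% ± 2.91 (SD, n = 3 each). Grin2b made up 34.7%, 32.9% and 35.5% in air and 44.1%, 33.3% and 44.7% in hyperoxia, and hyperoxia library 2 lay inside the air range. Grin2c took 24% to 25.5% in air and 18.2% to 27.4% in hyperoxia, and Grin2d 8.81% to 9.98% in air and 7.88% to 15.9% in hyperoxia. The shares moved with the length used, from 31.4% to 34.7% for Grin2a and from 34.4% to 52% for Grin2b in air with coding length. The mean share of Grin2a was lower and that of Grin2b higher in hyperoxia with each of the lengths. A length divides a gene by the same number in every library, so the lengths give no separate support. These shares were not tested.

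**Figure D5:**
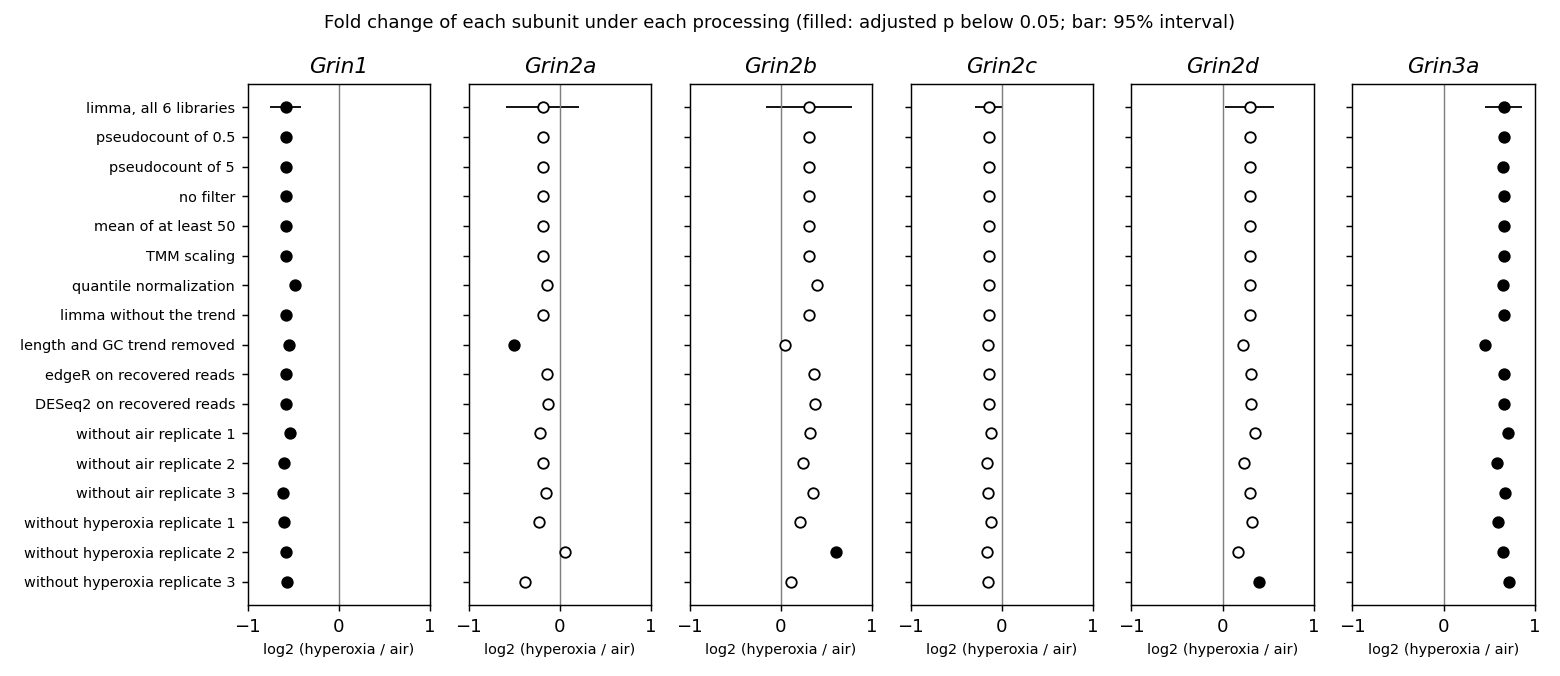
Log2 difference of each subunit gene, hyperoxia against air (x axis), in the limma fit on all 6 libraries (with its 95% interval) and under each of 16 alternatives (rows); filled points have an adjusted p below 0.05. Grin1 and Grin3a are filled in all rows, Grin2c in none, and Grin2a, Grin2b and Grin2d in 1 row each.

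The calls for Grin1 and Grin3a held in 16 of 16 alternatives, with log2 differences of -0.62 to -0.49 for Grin1 and 0.45 to 0.72 for Grin3a. Grin2c stayed under the air level in each, from -0.16 to -0.12, and was called in none, with a limma adjusted p of 0.0513 at the least. The number of members called was 2 or 3 in each alternative, while the share of all genes called ran from 17.2% to 43.7%.

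The genes most like each subunit over the 6 libraries were sought among 8851 other protein-coding genes with a mean normalized count of at least 500. Likeness was the root mean square difference of log2 values after each gene was centred on its own mean, over 6 libraries that share their scaling. For Grin1 the nearest genes were Prr14 (0.0277), Rbm3 (0.0308) and Nop14 (0.0336), where the median gene was at 0.308. For Grin3a they were Gab2 (0.0443), Gdpd5 (0.0464) and C77080 (0.0479), where the median gene was at 0.368. Grin2a was followed most closely by Ryr2 (0.0478), Cacna1e (0.0611) and Atp2b1 (0.066). Klhl3 (0.0399), Zbtb16 (0.0525) and Sacm1l (0.0715) came nearest to Grin2b. Ski (0.0114), Oxnad1 (0.0122) and Ints3 (0.016) did so for Grin2c, and Camk2n2 (0.0093), Timp2 (0.0494) and Slc6a11 (0.0531) for Grin2d. These values describe likeness in these 6 libraries and carry no test.

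Other genes overlap the members in the annotation. Within the span of Grin2b on the other strand, Gm14330 shares no exon base with it and was lower in hyperoxia (log2 difference -1.80, limma adjusted p = 0.00229). Gm26653, which shares 49 exon bases with Grin2b, had a log2 difference of -0.33 (limma adjusted p = 0.522). Gm45441 shares 643 exon bases with Grin2d and had a difference of -0.27 (limma adjusted p = 0.198). Kdelr1, also opposite to Grin2d but with no shared exon base, had one of -0.26 (limma adjusted p = 0.0605). Ppp3r2 lies in an intron of Grin3a on the same strand, with between 4.07 and 22.2 normalized counts per library and a difference of 1.17 (limma adjusted p = 0.0903). At these levels none of them came near the count of the member it overlaps, except Kdelr1, which exceeded Grin2d and shares no exon with it.

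The genes that act around the receptor were taken from 4 lists: those that supply the co-agonist, the scaffolds, the kinases with phosphatases and calcium signalling, and the trafficking and surface partners. Over all tested genes 30.5% were called, 14.9% higher and 15.6% lower, and the counts of each list are to be read beside these shares. Among the kinases, phosphatases and calcium genes, 11 of 20 were lower in hyperoxia, 1 was higher and 8 were not called, and the median log2 difference was -0.31 where that of all tested genes was -0.01. Ptk2b, a calcium-activated tyrosine kinase that acts on the receptor through Src, had normalized counts of 25879, 25687 and 24277 in air and 11446, 11574 and 14485 in hyperoxia (log2 difference -1.02, limma adjusted p = 3.49e-04). Its hyperoxia libraries were all far below the air libraries. Ppp3ca, the catalytic subunit of calcineurin, fell by 0.66 (limma adjusted p = 0.00183), Calm2, a calmodulin gene, by 0.57 (limma adjusted p = 0.00156), and Camk2b, a kinase that binds GluN2B, by 0.57 (limma adjusted p = 0.00208).

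Of the 13 scaffold genes 4 were lower, 2 higher and 7 not called, with a median log2 difference of -0.13. Dlgap1 fell by 0.56 (limma adjusted p = 0.00102) and Shank1 by 0.53 (limma adjusted p = 0.00498), both of the layers that link the receptor complex to the cytoskeleton. Dlg1 and Dlg2, which encode the membrane-associated guanylate kinases SAP97 and PSD-93, rose by 0.55 (limma adjusted p = 0.00532) and 0.46 (limma adjusted p = 0.00389). The groups did not overlap in these 4 genes, which were named for their large called changes, nor in 46.1% of all tested genes.

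Among 19 trafficking and surface partners 6 were higher, 4 lower and 9 not called, with a median log2 difference of 0.15. Lin7a, of the complex that carries GluN2B along microtubules, had 383, 367 and 394 normalized counts in air and 742.5, 489 and 787 in hyperoxia, a rise of 0.79 (limma adjusted p = 0.00658). Library 2 was the lowest of the hyperoxia libraries for Lin7a, as it was for Grin2b, for Reln and for most other genes of this list. That pattern was therefore not particular to Lin7a. Reln, the secreted protein reelin that acts on NMDA receptors through its lipoprotein receptors, rose by 0.75 (limma adjusted p = 0.00167). Pacsin1, an endocytic adaptor, fell by 0.60 (limma adjusted p = 0.00118) and Grina by 0.58 (limma adjusted p = 0.00173). Among 9 tested genes of co-agonist supply, Slc1a4, a carrier of neutral amino acids that include serine, was higher by 0.37 (limma adjusted p = 0.0159) and Shmt2, a mitochondrial enzyme that makes glycine from serine, fell by 0.32 (limma adjusted p = 0.0359). The other 7 were not called, the median was 0.02, and Dao, which degrades D-serine, was under the filter on low values.

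The tissue was checked against markers of its own cell types and of neighbouring regions, and no gene of any list was at 0 in any library. Of all tested genes, 14.9% were called higher and 15.6% lower. Besides the lists named above, 1 of 5 CA1 genes was higher, 2 of 6 CA3 genes were lower, and among astrocyte genes 2 of 7 were higher and 2 lower. Of the oligodendrocyte genes 6 of 7 were lower and none was higher, while 2 of 5 precursor genes were higher. Of the others, 1 of 6 microglial genes and 3 of 6 endothelial genes were higher, with 1 endothelial gene lower. Of the thalamic genes 3 of 7 were higher and 1 lower, with a summed count of 7119 to 7167 in air and 8689 to 9672 in hyperoxia. The choroid plexus list had 1 of 7 genes higher, and hyperoxia library 3 stood out with a summed count of 8219, where the other 5 libraries had 512 to 1444. The part of these lists in the values of the subunits was not tested.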

How the data were processed

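Total RNA of 3 air-exposed and 3 hyperoxia-exposed mice was selected for polyA, made into strand-specific libraries and sequenced as paired reads of 75 bases. The submitters' processing notes name FastQC, STAR 2.5.3a, HTSeq and DESeq2. What each tool did, the genome build, the annotation and the use of strand in counting were not given in the sources used here. Normalized counts were deposited by the authors and treated here as a signal, reads per gene divided by 1 factor per library. A second deposited table holds the authors' own comparison (means, fold changes, errors, statistics and p-values) and was not used. No sample column was left unused, 0 in all.

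All values were whole multiples of 1 read (100% within 0.01), so reads were recovered. Values were fitted as log2(value + 1) in R 4.3.3 by limma 3.58.1, its prior following the mean level (trend), for genes whose mean value was 10 or more, and p-values were adjusted by Benjamini-Hochberg. edgeR 4.0.16 and DESeq2 1.42.0 on recovered reads were alternatives, and the trends with length and GC content were removed with mgcv 1.9.3. Ratios were fitted as log2 differences within a library. Scripts were tested on simulated data. Replicate libraries differed by more than sampling noise (chi-square per gene 6.51 to 47.23), so none was a repeat. Lengths and positions came from GENCODE M21 on GRCm38, with 99.68% of gene IDs matched and 84.82% in the same version. Sequences were read from its transcripts with Biopython 1.88.

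Named genes were every member, Grin3b, up to 4 called genes per pathway list with the largest changes, the 3 genes most like each member, and overlapping genes, apart from 1 list gene and the coding stretches of 3 members that are not reported here. The members and the 6 pathway and 13 marker lists were chosen with earlier results of these data known, so their counts are descriptions. No test of a list as a whole was made.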

Additional observations from a re-analysis of the deposited data

How the results depend on the processing

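Of 16 alternatives, 6 left out 1 library each. Over those 6, the log2 difference ran from -0.62 to -0.53 for Grin1, -0.38 to 0.05 for Grin2a, 0.11 to 0.61 for Grin2b, -0.16 to -0.12 for Grin2c, 0.17 to 0.40 for Grin2d and 0.59 to 0.72 for Grin3a. The sign turned for Grin2a without hyperoxia library 2 (0.0546), Grin2b passed without the same library (0.61), and Grin2d passed without hyperoxia library 3 (0.40). With length and GC trends removed Grin2a passed, at -0.50. The genes called among all tested ranged from 3056 (without air library 1) to 7771 (without hyperoxia library 2), with 3083 without air library 2 and 3375 without hyperoxia library 1, against 5425 with all 6. The other settings gave between 4224 (limma without the trend) and 5723 calls, among them 5501 by edgeR and 5611 by DESeq2 on recovered reads. Genes called in the co-agonist list numbered 0 without the trend and 0 to 2 with a library left out, and in the maturation list 3 after quantile normalization and 3 to 8 with a library left out. The cause of these changes was not tested.

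With a library left out, the log2 difference of the ratio to Grin1 ran from 0.18 to 0.64 for Grin2a, 0.68 to 1.19 for Grin2b, 0.41 to 0.49 for Grin2c, 0.75 to 0.96 for Grin2d and 1.19 to 1.30 for Grin3a. Grin2a to Grin1 lost its call after quantile normalization (0.35), without the trend (0.40), with length and GC trends removed (0.0405) and as a row of the gene table (0.40), the last chosen after seeing the data. It also lost it without air libraries 1 or 2 and without hyperoxia libraries 1 or 3. The exact permutation test cannot pass with 3 against 3, so none of the 5 ratios passed it: 0.40 for Grin2a (p = 0.3), 0.89 for Grin2b, 0.44 for Grin2c, 0.88 for Grin2d and 1.24 for Grin3a (p = 0.1 each). Grin2a to Grin2b ran from -0.55 to -0.43 with a library left out. It passed without hyperoxia library 2 (-0.55), with length and GC trends removed (-0.55) and as a row of the gene table (-0.49). The range to Grin2b was -0.77 to -0.26 for Grin2c, -0.44 to 0.29 for Grin2d and 0.05 to 0.60 for Grin3a. Grin2d to Grin2b turned sign with length and GC trends removed (0.17), and without air library 1 (0.04), hyperoxia library 1 (0.11) or hyperoxia library 3 (0.29). Coding length was also an alternative chosen after seeing the data.

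No paired analysis was possible because the titles number the animals from 1 to 6 across both groups and the column numbers 1 to 3 name no animal, so no library of one group belongs with a library of the other. With 3 mice per group, hyperoxia library 2 decided the call for Grin2b and the sign for Grin2a. Counting error was close to the whole spread of Grin2c, and Grin3b was limited by depth.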

Other observations

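Grin2b and Grin3a are among the genes known to be high early in postnatal life and Grin2a among those that rise as neurons mature, so other genes of the same 2 kinds were counted from lists chosen with earlier results of these data known. Of 10 genes known to be high early, 4 were higher in hyperoxia, 2 lower and 4 not called, with a median log2 difference of 0.29. Over all tested genes 14.9% were called higher and 15.6% lower, and the median was -0.01. Dpysl3, which acts in growth cones, was the largest, with normalized counts of 5641, 5015 and 5229 in air and 10593, 9824 and 12697 in hyperoxia (log2 difference 1.05, limma adjusted p = 3.3e-04). Gabra3, a GABA type A receptor subunit of young neurons, had a difference of 0.98 (limma adjusted p = 0.00112), Dcx, a microtubule protein of migrating neurons, one of 0.64 (limma adjusted p = 0.00483), and Gap43, of growing axons, one of 0.59 (limma adjusted p = 0.00271). Dlg3 and Gabra2 of the same list were lower.

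Of 12 genes known to rise with maturation, 5 were lower in hyperoxia, 1 was higher and 6 were not called, with a median of -0.18. Of all tested genes, 15.6% were called lower and 14.9% higher. Pvalb, the calcium-binding protein of fast-spiking interneurons, had 643, 693 and 660.1 normalized counts in air and 324, 459 and 319 in hyperoxia (log2 difference -0.88, limma adjusted p = 0.00208). Camk2a, the kinase abundant at excitatory synapses, fell by 0.51 (limma adjusted p = 0.00576). Gabrd, an extrasynaptic GABA type A receptor subunit, was higher by 0.40 (limma adjusted p = 0.0442) although its groups overlapped. Both lists held genes called in either direction.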
